A study of Homo sapiens with 11 samples.

Results

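The collagen gene family was taken as every gene whose whole symbol is COL, a number, A and a number, which gave 44 of the 36601 genes in the deposited matrices. The rule uses symbols and no measured value, though it was chosen with earlier results of these data known. The study measured RNA in single H9 cells, a human embryonic stem cell line grown towards heart tissue, with a droplet kit that reads the 3′ ends of transcripts. The first group is cardioids (chambered heart organoids) given PD173074, an inhibitor of FGF receptors. The second is cardioids without PD173074, and the third is a 2D culture. All 3 groups share the same line and were collected on day 42.5. The labels do not give the dose or timing of PD173074, and the findings rest on 1 cell line. The libraries number 3 with PD173074, 5 without PD173074 and 3 of the 2D culture.

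Collagens are secreted or membrane proteins whose chains wind around each other into a rope-like helix. Fibrillar collagens bear the tension of connective tissue, type IV collagen forms the sheet of basement membranes, type VI forms beaded filaments around cells, and other members sit on fibrils or in the plasma membrane. In the heart, fibroblasts are known as the main makers of types I and III, while cardiomyocytes rest on a basement membrane that holds type IV.

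Libraries of a group shared 99.3% to 99.9% of their cell barcodes and libraries of different groups at most 0.737%, so each group was treated as repeat runs of 1 sample and its runs were averaged. In 12 of the 16 pairs of runs the gene counts differed by less than the sampling noise, and the other 4 pairs held run 3 without PD173074. No difference could therefore be checked against replicates or tested. Ratios are given with 95% intervals that cover counting error only. Run totals were 36127841 to 37765195 UMIs with PD173074, 12266166 to 24495291 without PD173074 and 43908067 to 46304366 in the 2D culture. Cells kept were 4597 with PD173074, 3534 without PD173074 and 8183 in the 2D culture. Clustering without the collagen genes gave 15 clusters, which were named from marker lists. Cardiomyocyte-like cells were 64.4% of cells with PD173074, 86.9% without PD173074 and 88.4% in the 2D culture. These shares do not count a cluster set aside from naming, 9.35% of cells with PD173074, 2.12% without PD173074 and 0.0244% in the 2D culture. Its cardiomyocyte markers summed to 24936 CPM with PD173074 and 28744 CPM without it, beside 26874 CPM and 19819 CPM in cardiomyocyte-like cells. Cartilage-like cells, led by *MATN4* and *ACAN*, were 13.0% of cells with PD173074, 4.44% without PD173074 and 3.37% in the 2D culture. In every sample their stromal markers summed higher than their cartilage markers, so the name does not exclude stromal cells. Stromal-like cells, led by *ITGA11*, *ELN* and *LOX*, were 0.0870% with PD173074, 1.75% without PD173074 and 8.15% in the 2D culture. Epithelial-like cells made up 11.6% with PD173074, 2.46% without PD173074 and 0 of 8183 cells in the 2D culture, a count that allows up to 0.0367%. Of the cells without PD173074, 2019 of 3534 (57.1%) fell in clusters made mostly of cells of another sample, against 2.68% with PD173074 and 5.49% in the 2D culture. The source of these cells was not tested. Members counted as higher or lower over all cells or in cardiomyocyte-like cells with against without PD173074 are given with and without them. The cartilage-like, stromal-like and epithelial-like cells without PD173074, 157, 62 and 87 in number, all lie in such clusters, so their values cannot be given without these cells. Leaving such cells out kept 1515 cells without PD173074, 1441 of them cardiomyocyte-like. With PD173074, 4474 cells stayed, 2898 of them cardiomyocyte-like. Over all cells, values so given therefore compare samples of unlike cell classes. In cardiomyocyte-like cells they compare unlike clusters. The cells of that class kept without PD173074 were 1336 of cluster 3 and 105 of cluster 12. Those kept with PD173074 were 1519 of cluster 2, 554 of cluster 5, 672 of cluster 6 and 153 of cluster 12.

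Levels are in CPM, a gene's UMI counts scaled to the same total for every sample or cell class. Since the kit counts transcript ends, levels are read per transcript and not per length. Of the 44 members, 29 reached 10 CPM over all cells of at least 1 sample, and 26 of these did so in every sample. Another 12 peaked between 1 and 10 CPM, and 3 stayed under 1 CPM. The family's summed level was 4134 CPM with PD173074, 3652 CPM without PD173074 and 5987 CPM in the 2D culture. As log2 ratios these are 0.18 (0.17 to 0.19) with against without PD173074, -0.71 (-0.72 to -0.70) without PD173074 against the 2D culture and -0.53 (-0.54 to -0.53) with PD173074 against the 2D culture. Without the cells of other samples' clusters the sums were 4249 CPM with PD173074, 1704 CPM without PD173074 and 5758 CPM in the 2D culture, so the log2 ratio with against without PD173074 became 1.32. That setting left the sample without PD173074 with no cartilage-like, stromal-like or epithelial-like cells. As means over cells, each cell weighted alike, the ratios were 0.45 with against without PD173074, -0.49 without PD173074 against the 2D culture and -0.0334 with PD173074 against the 2D culture.

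Different cells carried these transcripts in the 3 samples. Stromal-like cells held 69.1% of the collagen UMIs of the 2D culture and 39.1% of those without PD173074, but 0.369% with PD173074, where only 4 cells fell in that cluster. Stromal markers were also high in cartilage-like cells, so these shares depend on how clusters were named. With PD173074, cartilage-like cells held 36.7% and epithelial-like cells 18.0% of the collagen UMIs, against 12.8% and 3.44% without PD173074. Cardiomyocyte-like cells held 37.6% with PD173074, 42.0% without PD173074 and 22.7% in the 2D culture. They gave 55.1% of all UMIs with PD173074, 82.5% without PD173074 and 78.7% in the 2D culture. Per UMI, collagens reached 27680 CPM without PD173074 and 23509 CPM in the 2D culture in stromal-like cells. Cartilage-like cells had 10005 CPM with PD173074, 11057 CPM without PD173074 and 13563 CPM in the 2D culture. In cardiomyocyte-like cells the sums were 2826 CPM with PD173074, 1858 CPM without PD173074 and 1727 CPM in the 2D culture, a log2 ratio of 0.61 (0.59 to 0.62) with against without PD173074.

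**Figure D1:**
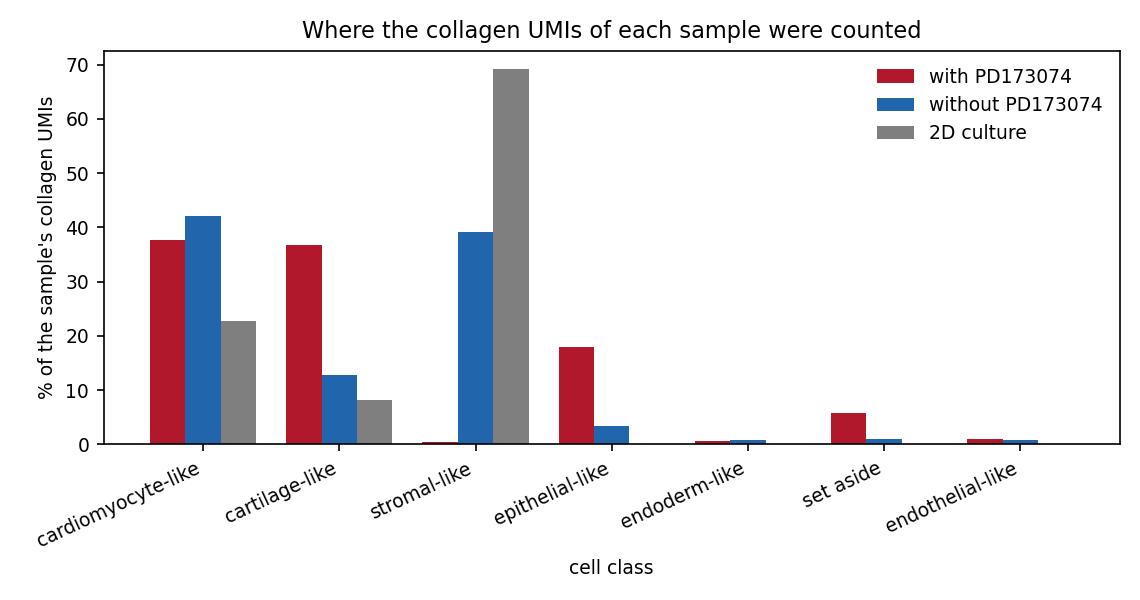
Share of each sample's collagen UMIs (y axis, in percent) counted in each cell class (x axis); each bar is 1 sample, the mean of its runs. The tallest bar is the stromal-like share of the 2D culture, 69.1%, where the sample with PD173074 has 0.369%.

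Members that reached 10 CPM in at least 1 of the 2 samples were compared, and one was counted as higher or lower if its whole interval lay beyond 2-fold. Over all cells, 28 members could be compared with against without PD173074. Of these, 3 were higher (*COL6A3*, *COL3A1* and *COL6A2*) and 2 lower (*COL8A1* and *COL13A1*), while 3.2% of all 10807 genes compared were higher and 1.84% lower. The members' median log2 ratio was 0.32, against -0.10 for all genes. Without PD173074 against the 2D culture, 0 of 29 members were higher and 3 lower (*COL8A1*, *COL1A2* and *COL1A1*), beside 1.45% and 0.398% of all genes. With PD173074 against the 2D culture, 2 of 29 were higher (*COL24A1* and *COL6A3*) and 5 lower (*COL8A1*, *COL1A1*, *COL1A2*, *COL13A1* and *COL11A1*), beside 5.93% and 2.59% of all genes. Leaving out the cells of other samples' clusters moved the first comparison to 16 higher and 2 lower of 27 (all genes 5.25% and 3.18%). It moved the comparison without PD173074 against the 2D culture to 1 higher and 12 lower of 26 (all genes 2.94% and 1.87%). Every cartilage-like, stromal-like and epithelial-like cell without PD173074 was left out there, so both counts compare unlike cell classes.

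In cardiomyocyte-like cells alone, 7 of 22 members were higher with PD173074 than without it and 1 was lower, beside 2.39% and 1.97% of all genes. The members' median was 0.63 and that of all genes -0.07. The 7 were *COL3A1*, *COL2A1*, *COL1A1*, *COL1A2*, *COL4A1*, *COL21A1* and *COL4A2*, and the lower member was *COL13A1*. Inside single clusters, which have fewer counts, fewer members were so placed. Cluster 2 had 0 of 21 and cluster 6 had 0 of 23 (all genes 0.0388% and 0.0777%). Cluster 5 had 1 of 21 higher, and cluster 12 had 2 of 22 higher and 1 lower (all genes 0.729% and 1.31%). Summed log2 ratios were 0.15, -0.0196, 0.36 and 0.55 in clusters 2, 6, 5 and 12. The part of cluster make-up in the class counts was not tested. Between cardiomyocyte-like cells without PD173074 and those of the 2D culture, 0 of 22 members were higher or lower, with 0.979% and 0.134% of all genes so placed. With PD173074 against the 2D culture, 9 of 22 were higher and 2 lower, beside 4.93% and 2.78% of all genes. That count of 9 rests on how cells were clustered: 4 of the 9 remained when collagen genes were kept among the clustering genes. At resolution 0.3, at resolution 1.0 and with the set-aside cluster counted in, 5 of the 9 remained, and *COL2A1*, *COL4A2* and *COL23A1* lost their count in all of these settings. Without the cells of other samples' clusters, 8 of 21 members were higher with against without PD173074 and 1 lower (all genes 3.19% and 2.63%). Of the 1441 cells kept without PD173074 there, 1336 were of cluster 3, which was left out with PD173074. These counts therefore compare unlike clusters. Lists of marker genes in the same cells differed in both directions. The 11 stromal markers summed to 367 CPM with PD173074, 196 CPM without PD173074 and 185 CPM in the 2D culture, with none of the markers at 0. The 7 smooth muscle markers summed to 2670 CPM with PD173074, 1352 CPM without PD173074 and 1502 CPM in the 2D culture, and the 12 cartilage markers to 11.2 CPM with PD173074, 7.66 CPM without PD173074 and 8.13 CPM in the 2D culture. Of those 12, 2 were at 0 with PD173074, 2 without PD173074 and 1 in the 2D culture. The 9 endothelial markers summed to 65.4 CPM with PD173074, 129 CPM without PD173074 and 158 CPM in the 2D culture, and the 8 epithelial markers to 83.0 CPM with PD173074, 134 CPM without PD173074 and 122 CPM in the 2D culture. The 10 endoderm markers summed to 13.8 CPM with PD173074, 37.9 CPM without PD173074 and 52.2 CPM in the 2D culture, and the 7 epicardial markers to 11.2 CPM with PD173074, 23.1 CPM without PD173074 and 32.4 CPM in the 2D culture. The 15 cardiomyocyte markers summed to 26874 CPM with PD173074, 19819 CPM without PD173074 and 16519 CPM in the 2D culture. The 7 neural markers had 5.13 CPM with PD173074, 2.47 CPM without PD173074 and 1.62 CPM in the 2D culture. Stromal, smooth muscle, cartilage, cardiomyocyte and neural markers were thus highest with PD173074. Endothelial, epithelial, endoderm and epicardial markers were lowest there, as were blood and pluripotent markers, all at most 2.25 CPM. The part of these cell types in the collagen ratios was not tested.

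**Figure D2:**
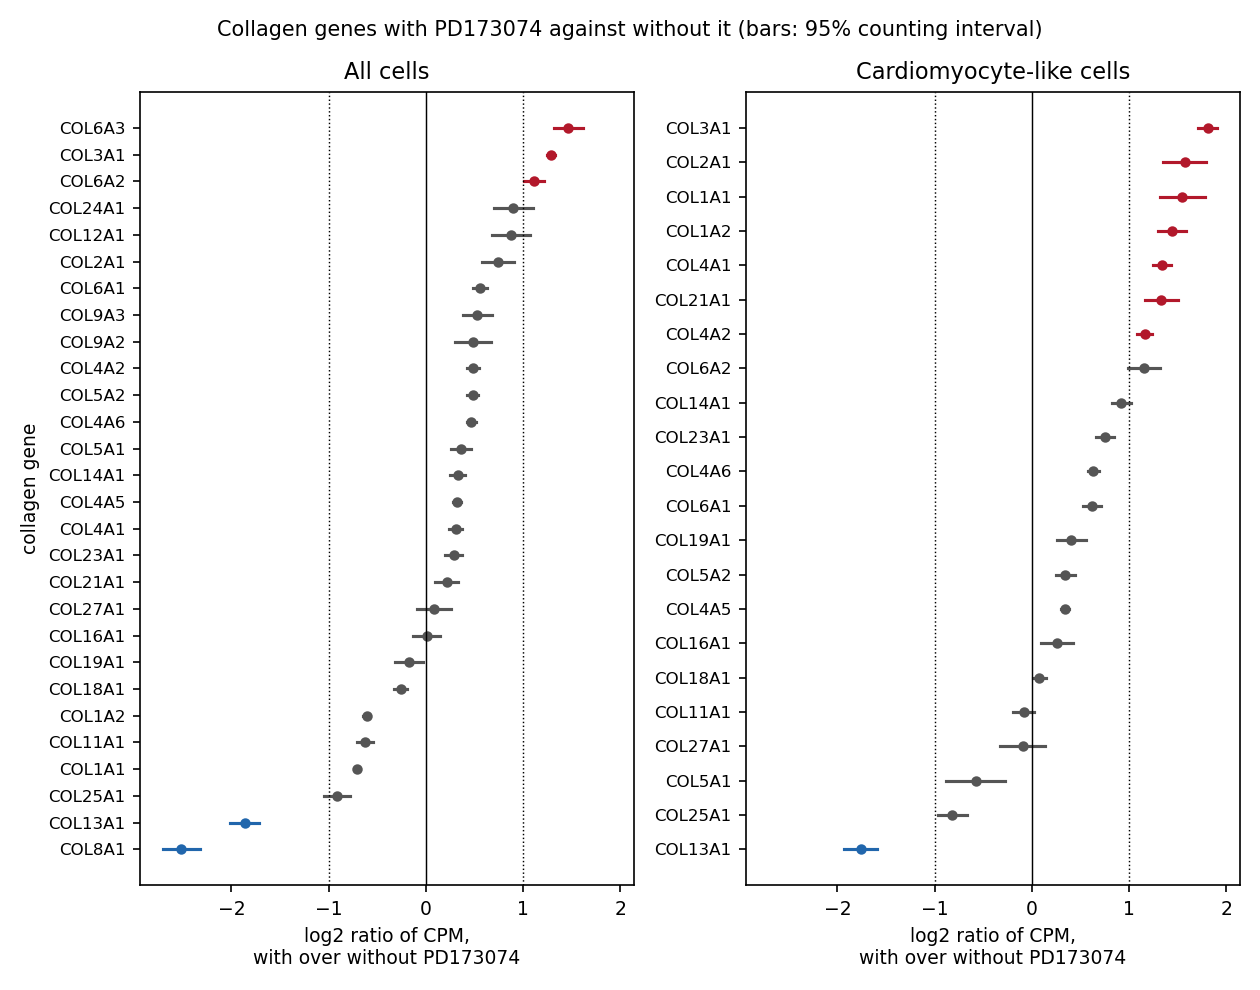
Log2 ratio of CPM with over without PD173074 (x axis) for each collagen gene measured (y axis), over all cells on the left and cardiomyocyte-like cells on the right; points are ratios, bars are 95% counting intervals and dotted lines mark 2-fold. Coloured points have their whole interval beyond 2-fold: 3 higher and 2 lower on the left, 7 higher and 1 lower on the right.

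Type I collagen, a trimer of chains from *COL1A1* (chr17:50183289-50201632, minus strand) and *COL1A2* (chr7:94394561-94431232, plus strand), is the main fibril of connective tissue. *COL1A1* had 384 CPM over all cells with PD173074, 627 CPM without PD173074 and 1556 CPM in the 2D culture. *COL1A2* had 377 CPM with PD173074, 575 CPM without PD173074 and 1487 CPM in the 2D culture. Both genes were thus highest in the 2D culture, and their ratio *COL1A1* over *COL1A2* stayed close to 1 in all samples, at 1.02 with PD173074, 1.09 without PD173074 and 1.05 in the 2D culture. Their log2 ratios were -2.02 and -1.98 with PD173074 against the 2D culture, and -1.31 and -1.37 without PD173074 against the 2D culture. Stromal-like cells had the highest levels: *COL1A1* reached 9992 CPM without PD173074 and 8111 CPM in the 2D culture. *COL1A2* had 8696 CPM without PD173074 and 7597 CPM in the 2D culture there. In cartilage-like cells *COL1A1* had 1811 CPM with PD173074, 1927 CPM without PD173074 and 3203 CPM in the 2D culture. *COL1A2* had 1709 CPM with PD173074, 2043 CPM without PD173074 and 3708 CPM in the 2D culture. Without the cells of other samples' clusters, *COL1A1* had 395 CPM with PD173074 and 14.9 CPM without it, which turns the direction of that ratio. The log2 ratios without PD173074 against the 2D culture were then -6.67 for *COL1A1* and -6.15 for *COL1A2*. In this setting the sample without PD173074 held no cartilage-like, stromal-like or epithelial-like cells.

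In cardiomyocyte-like cells the type I genes were far lower. *COL1A1* had 34.3 CPM with PD173074, 11.8 CPM without PD173074 and 16.6 CPM in the 2D culture. *COL1A2* had 79.1 CPM with PD173074, 29.1 CPM without PD173074 and 21.0 CPM in the 2D culture. Their log2 ratios with against without PD173074 were 1.55 and 1.44, and 1.97 and 2.58 without the cells of other samples' clusters. After each cell was thinned to 2000 UMIs, 4.39% of cardiomyocyte-like cells with PD173074 had a *COL1A1* UMI, against 2.09% without PD173074 and 2.81% in the 2D culture. In endoderm-like cells, led by *AFP*, *TTR* and *ALB*, the shares were 1.92% with PD173074 and 8.33% without PD173074. Median UMIs before thinning were 6374 with PD173074, 5485 without PD173074 and 4392 in the 2D culture in cardiomyocyte-like cells, and 16778 with PD173074 and 7326 without PD173074 in endoderm-like cells. Endoderm-like cells had 18.5 CPM of *COL1A1* with PD173074 and 88.3 CPM without PD173074, above the 11.8 CPM of cardiomyocyte-like cells without PD173074, so no background level was read from them. Within these cells *COL1A1* over *COL1A2* was 0.434 with PD173074, 0.403 without PD173074 and 0.788 in the 2D culture, below the ratios of the whole samples.

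Type III collagen, encoded by *COL3A1* (chr2:188974320-189012746, plus strand), forms thinner fibrils together with type I in distensible tissues. *COL3A1* had 829 CPM over all cells with PD173074, where it ranked highest of all members, 340 CPM without PD173074 and 567 CPM in the 2D culture. The log2 ratio with against without PD173074 was 1.29 (1.25 to 1.32), and 5.49 without the cells of other samples' clusters. The latter value leaves out every cartilage-like, stromal-like and epithelial-like cell without PD173074. The level of *COL3A1* was alike between samples within the classes rich in it: cartilage-like cells had 2694 CPM with PD173074, 2615 CPM without PD173074 and 2145 CPM in the 2D culture. Epithelial-like cells had 1476 CPM with PD173074 and 1634 CPM without PD173074, and stromal-like cells 2404 CPM without PD173074 and 2323 CPM in the 2D culture. In cardiomyocyte-like cells it had 213 CPM with PD173074, 60.7 CPM without PD173074 and 102 CPM in the 2D culture, and the log2 ratio with against without PD173074 was 1.81 (1.71 to 1.91).

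The class mean of *COL3A1* hides a wide spread among cardiomyocyte-like clusters. In cluster 3, led by *PTGER3*, 1336 of 1411 cells were without PD173074 and had 6.77 CPM, against 58.7 CPM in the 58 cells of the 2D culture there. Cells without PD173074 in cluster 0, mostly of the 2D culture, had 112 CPM, beside 109 CPM for the 2D culture. Cluster 5, led by *TFPI2*, had 490 CPM with PD173074, 154 CPM without PD173074 and 335 CPM in the 2D culture. Cluster 6, led by *ZNF536*, had 296 CPM with PD173074 and 278 CPM without it. Cluster 2, led by *NR2F1-AS1*, had 58.2 CPM with PD173074 and 40.5 CPM without it. In clusters 0, 2 and 6, cells without PD173074 lay closer to the sample that made up most of the cluster than to the 6.77 CPM of cluster 3. In cluster 5 they did not, with 154 CPM beside 490 CPM with PD173074. Cells of a cluster were grouped by like expression, so such nearness cannot show where these cells came from. Of these clusters, cluster 5 alone had *COL3A1* beyond 2-fold with against without PD173074, at a log2 ratio of 1.67 (1.48 to 1.85), with 0.729% of all genes higher or lower there. The share of cells with a UMI after thinning was 17.5% with PD173074, 7.16% without PD173074 and 14.1% in the 2D culture, and in endoderm-like cells 11.5% with PD173074 and 11.1% without PD173074. Endoderm-like cells had 109 CPM of *COL3A1* with PD173074 and 103 CPM without PD173074, above the 6.77 CPM of cluster 3, so again no background level was read from them. Leaving out the cells of other samples' clusters gave *COL3A1* 216 CPM with PD173074 and 12.4 CPM without PD173074 in cardiomyocyte-like cells, a log2 ratio of 4.13. This ratio sets mainly cluster 3 without PD173074 against other clusters with PD173074.

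Type V collagen, from *COL5A1* and *COL5A2*, is known to start fibrils and set their width. *COL5A2* had 225 CPM over all cells with PD173074, 161 CPM without PD173074 and 237 CPM in the 2D culture. *COL5A1* had 67.9 CPM with PD173074, 53.0 CPM without PD173074 and 103 CPM in the 2D culture. Stromal-like cells were highest for both, with *COL5A2* at 1053 CPM without PD173074 and 898 CPM in the 2D culture. *COL5A1* had 549 CPM without PD173074 and 456 CPM in the 2D culture in these cells. *COL5A2* lies tail to tail with *COL3A1*, 19.1 kb apart on chromosome 2. In cardiomyocyte-like cells *COL5A2* kept 105 CPM with PD173074, 82.8 CPM without PD173074 and 76.2 CPM in the 2D culture, whereas *COL5A1* had 8.12 CPM with PD173074, 12.1 CPM without PD173074 and 19.4 CPM in the 2D culture. The log2 ratio of *COL5A1* with PD173074 against the 2D culture was -1.26.

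**Figure D3:**
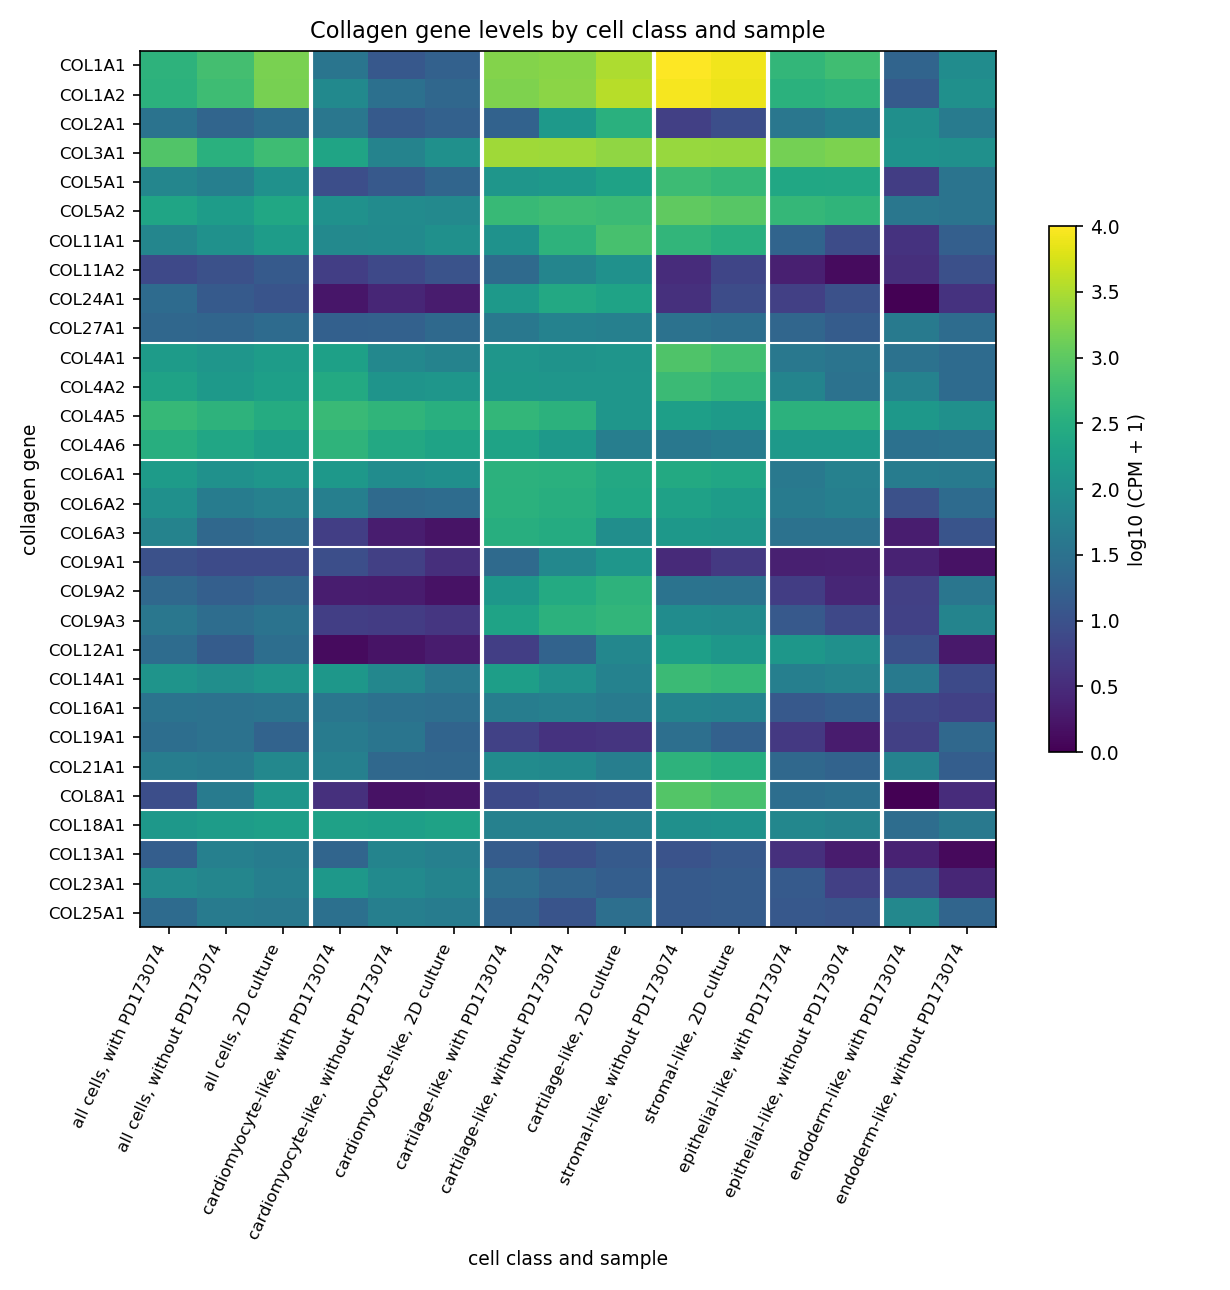
Level of the 30 named collagen genes (rows, grouped by type of assembly) in all cells and in each cell class of each sample with 50 cells or more (columns), as log10 of CPM plus 1, the mean of the runs. *COL1A1* and *COL1A2* are brightest in stromal-like cells, and the type IV genes *COL4A5* and *COL4A6* are the brightest rows of the cardiomyocyte-like columns.

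Genes of cartilage collagens differed between samples inside the cartilage-like class. *COL2A1* (chr12:47972965-48004554, minus strand) encodes the main fibril of cartilage, *COL11A1* and *COL11A2* the chains that nucleate it, and *COL9A1*, *COL9A2* and *COL9A3* the type IX molecules on its surface. In cartilage-like cells *COL2A1* had 17.2 CPM with PD173074, 140 CPM without PD173074 and 349 CPM in the 2D culture. *COL11A1* had 108 CPM with PD173074, 381 CPM without PD173074 and 673 CPM in the 2D culture. *COL11A2* had 23.3 CPM with PD173074, 65.8 CPM without PD173074 and 106 CPM in the 2D culture. All 3 genes were lowest with PD173074 and highest in the 2D culture. *COL9A1* had 23.5 CPM with PD173074, 73.1 CPM without PD173074 and 125 CPM in the 2D culture. *COL9A2* had 132 CPM with PD173074, 276 CPM without PD173074 and 389 CPM in the 2D culture. *COL9A3* had 211 CPM with PD173074, 370 CPM without PD173074 and 421 CPM in the 2D culture. Of 31 members measured in this class, 0 were higher and 5 lower with against without PD173074, beside 0.106% and 0.368% of all genes. The 5 were *COL2A1* at a log2 ratio of -3.03, *COL15A1* at -1.94, *COL11A1* at -1.82, *COL9A1* at -1.64 and *COL11A2* at -1.50. Against the 2D culture, 4 of 31 were higher and 8 lower with PD173074 (all genes 3.47% and 1.23%), with *COL2A1* at -4.35. Without PD173074 against the 2D culture, 3 were higher and 2 lower (all genes 1.71% and 0.175%), the lower ones being *COL12A1* at -1.99 and *COL2A1* at -1.32.

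The make-up of the cartilage-like class also differed between samples. At a finer resolution, 438 of the 597 cells with PD173074 fell in a cluster led by *TCF21* and *MSX1*, against 64 of 157 cells without PD173074 and 2 of 276 in the 2D culture. A cluster led by *MATN4* and *ACAN* held 120 cells with PD173074, 80 without PD173074 and 261 of the 2D culture. Summed over the class, the 12 cartilage markers had 869 CPM with PD173074, 1538 CPM without PD173074 and 2114 CPM in the 2D culture, with none at 0. The 11 stromal markers, *TCF21* among them, had 2932 CPM with PD173074, 3133 CPM without PD173074 and 3024 CPM in the 2D culture. In stromal-like cells those 11 had 2747 CPM without PD173074 and 2585 CPM in the 2D culture. Inside the *MATN4* and *ACAN* cluster, type IX was closer between samples: *COL9A2* had 353 CPM with PD173074, 424 CPM without PD173074 and 394 CPM in the 2D culture. *COL9A3* had 406 CPM with PD173074, 530 CPM without PD173074 and 426 CPM in the 2D culture. *COL2A1* still differed, with 70.2 CPM with PD173074, 250 CPM without PD173074 and 352 CPM in the 2D culture, and a log2 ratio with against without PD173074 of -1.83 (-2.26 to -1.40). *COL11A1* had 191 CPM with PD173074, 629 CPM without PD173074 and 682 CPM in the 2D culture there, a log2 ratio of -1.72 (-1.98 to -1.46), with 0.61% of all genes higher or lower. In that cluster *COL24A1*, a minor fibrillar collagen, ran the other way, with 486 CPM with PD173074, 426 CPM without PD173074 and 206 CPM in the 2D culture. *COL12A1*, a fibril-associated member, had 0.308 CPM with PD173074, under 1 UMI per run, 26.3 CPM without PD173074 and 71.5 CPM in the 2D culture. The *TCF21* and *MSX1* cluster had lower levels of these genes, such as 87.7 CPM of *COL11A1* with PD173074 and 66.5 CPM without PD173074. All cartilage-like cells without PD173074 lie in a cluster made mostly of cells with PD173074.

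**Figure D4:**
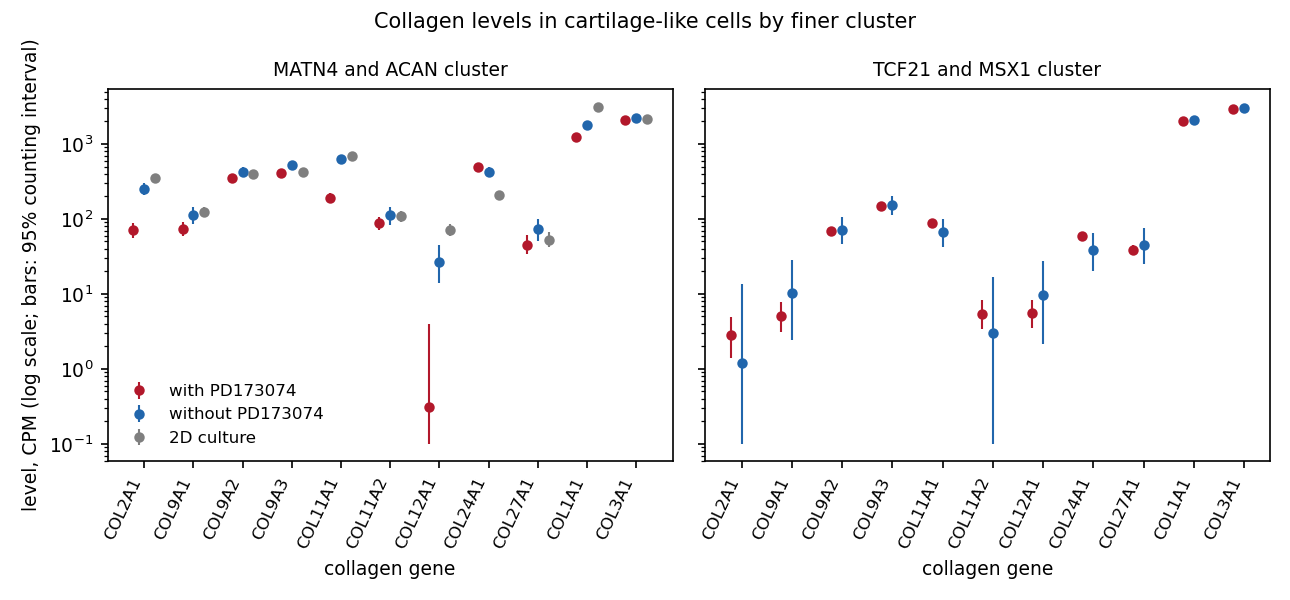
Level in CPM on a log scale (y axis) of 11 collagen genes (x axis) in the cartilage-like cells of 2 finer clusters; points are samples and bars are 95% counting intervals, which end at the bottom of the drawn range where they reach 0. In the *MATN4* and *ACAN* cluster *COL2A1* is at 70.2 CPM with PD173074, below 250 CPM without PD173074 and 352 CPM in the 2D culture, while the *COL9A2* and *COL9A3* points of the samples lie close together.

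Over all cells these genes were less far apart. *COL2A1* had 32.5 CPM with PD173074, 19.5 CPM without PD173074 and 27.0 CPM in the 2D culture. *COL11A1* had 68.6 CPM with PD173074, 106 CPM without PD173074 and 162 CPM in the 2D culture. *COL11A2* had 6.54 CPM with PD173074, 8.70 CPM without PD173074 and 12.4 CPM in the 2D culture. The type XI genes thus kept the order they had inside the cartilage-like class, and *COL2A1* did not. *COL9A1* had 8.73 CPM with PD173074, 7.28 CPM without PD173074 and 7.07 CPM in the 2D culture. *COL9A2* had 21.7 CPM with PD173074 and 15.5 CPM without PD173074, with the 2D culture between them. *COL9A3* had 37.3 CPM with PD173074, 25.9 CPM without PD173074 and 32.1 CPM in the 2D culture. Each type IX gene was within 1.5-fold between samples. *COL24A1* had 23.6 CPM with PD173074, 12.7 CPM without PD173074 and 9.75 CPM in the 2D culture, with a log2 ratio of 1.28 with PD173074 against the 2D culture. *COL27A1*, another fibrillar member, had 20.7 CPM with PD173074, 19.4 CPM without PD173074 and 23.9 CPM in the 2D culture. *COL24A1* was highest in the cartilage-like class, with 145 CPM with PD173074, 255 CPM without PD173074 and 211 CPM in the 2D culture. After thinning, 17.4% of its cells with PD173074, 27.4% without PD173074 and 29.0% in the 2D culture had a *COL24A1* UMI, against 0.111% of cardiomyocyte-like cells with PD173074, 0.137% without PD173074 and 0.181% in the 2D culture. *COL2A1* was also found in cardiomyocyte-like cells, which had 37.1 CPM with PD173074, 12.5 CPM without PD173074 and 16.5 CPM in the 2D culture, a log2 ratio of 1.57 with against without PD173074 and of 2.55 without the cells of other samples' clusters. Cluster 6 of that class had 93.9 CPM of *COL2A1* with PD173074 and 116 CPM without PD173074, and held 672 cells with PD173074, 111 without PD173074 and 1 of the 2D culture. After thinning, 6.24% of cardiomyocyte-like cells with PD173074, 2.30% without PD173074 and 3.20% in the 2D culture had a *COL2A1* UMI, against 9.62% of endoderm-like cells with PD173074 and 2.78% without it. Endoderm-like cells themselves had 98.2 CPM with PD173074 and 44.7 CPM without it, so no background level was read from them for this gene. *COL11A1* in cardiomyocyte-like cells had 75.4 CPM with PD173074, 79.8 CPM without PD173074 and 101 CPM in the 2D culture.

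Type IV collagen was the leading kind in cardiomyocyte-like cells, with 48.7% of their collagen UMIs with PD173074, 46.6% without PD173074 and 41.6% in the 2D culture. In stromal-like cells it took 5.67% without PD173074 and 5.29% in the 2D culture, and types I, III and V together took 82.0% without PD173074 and 82.5% in the 2D culture. The 6 type IV genes lie as 3 head-to-head pairs, *COL4A1* with *COL4A2* on chromosome 13, *COL4A3* with *COL4A4* on chromosome 2 and *COL4A5* with *COL4A6* on chromosome X. Each pair shares the stretch between its starts. The promoter windows of *COL4A2* and *COL4A5* are shown because their pairs varied most closely together across the clusters of the samples. The windows run from 250 bases before to 50 bases after the start, as RefSeq gives them on GRCh38.p14. They lie at chr13:110307034-110307333 (plus strand) and chrX:108439588-108439887 (plus strand). Capitals mark the bases that also lie in the window of the partner gene, read on the other strand.
COL4A2: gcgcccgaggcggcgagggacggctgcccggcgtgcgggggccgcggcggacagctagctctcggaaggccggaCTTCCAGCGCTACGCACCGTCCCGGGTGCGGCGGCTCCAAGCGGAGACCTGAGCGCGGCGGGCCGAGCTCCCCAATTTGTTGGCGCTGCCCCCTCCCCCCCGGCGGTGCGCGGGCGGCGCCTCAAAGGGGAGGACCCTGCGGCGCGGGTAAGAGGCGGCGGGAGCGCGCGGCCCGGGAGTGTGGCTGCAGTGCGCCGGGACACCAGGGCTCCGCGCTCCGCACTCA
COL4A5: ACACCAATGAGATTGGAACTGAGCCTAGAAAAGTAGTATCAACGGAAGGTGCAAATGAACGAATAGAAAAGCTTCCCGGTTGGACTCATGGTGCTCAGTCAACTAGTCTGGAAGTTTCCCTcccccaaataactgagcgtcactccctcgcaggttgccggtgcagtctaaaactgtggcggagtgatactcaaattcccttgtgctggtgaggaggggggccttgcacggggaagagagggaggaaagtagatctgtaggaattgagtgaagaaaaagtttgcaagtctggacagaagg
The *COL4A2* window shares 226 bases with that of *COL4A1*, whose start is 127 bases away, and is 77.7% G and C. The *COL4A5* window shares 121 bases with that of *COL4A6*, whose start is 380 bases away, and is 49.3% G and C. Both strands were searched for 3 motifs, each counted on its own. GGGCGG stood at 1 place in the *COL4A2* window and at 0 in that of *COL4A5*, and was held by 44.9% of 34943 windows of the same length. CCAAT stood at 1 place in the *COL4A2* window and at 2 in that of *COL4A5*, and was held by 34.6% of all windows. TATAAA stood at 0 places in both, and was held by 11.6% of all windows. The 32 members with a window had 44 windows. Of these 44, 24 (54.5%) held the first motif, 14 (31.8%) the second and 8 (18.2%) the third.

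*COL4A1* and *COL4A2* encode the chains of the common basement membrane network. Over all cells *COL4A1* had 154 CPM with PD173074, 124 CPM without PD173074 and 159 CPM in the 2D culture. *COL4A2* had 200 CPM with PD173074, 143 CPM without PD173074 and 178 CPM in the 2D culture. Those levels lay within 1.5-fold of each other, but in cardiomyocyte-like cells *COL4A1* had 185 CPM with PD173074, 73.2 CPM without PD173074 and 61.3 CPM in the 2D culture. *COL4A2* had 265 CPM with PD173074, 119 CPM without PD173074 and 124 CPM in the 2D culture there. The log2 ratios with against without PD173074 were 1.34 for *COL4A1* and 1.16 (1.09 to 1.23) for *COL4A2*, and 1.59 and 1.10 with PD173074 against the 2D culture. Without the cells of other samples' clusters the ratios with against without PD173074 were 1.60 for *COL4A1* and 1.46 for *COL4A2*. After thinning, 23.8% of cardiomyocyte-like cells with PD173074, 13.2% without PD173074 and 10.9% in the 2D culture had a *COL4A1* UMI. In endoderm-like cells the shares were 3.85% with PD173074 and 4.17% without PD173074. Endoderm-like cells had 31.0 CPM of *COL4A1* with PD173074 and 23.6 CPM without it, so no background level was read from them. Cluster 6 was highest, with 441 CPM of *COL4A1* with PD173074 and 394 CPM without PD173074. *COL4A2* had 531 CPM with PD173074 and 452 CPM without it in that cluster. Cluster 2 had 98.1 CPM of *COL4A1* with PD173074 and 92.8 CPM without PD173074. Neither gene was beyond 2-fold between samples inside these clusters, where 0 members were, with 0.0777% of all genes higher or lower in cluster 6 and 0.0388% in cluster 2. Stromal-like cells had 804 CPM of *COL4A1* without PD173074 and 605 CPM in the 2D culture. *COL4A2* had 538 CPM without PD173074 and 434 CPM in the 2D culture there.

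*COL4A5* and *COL4A6* encode chains of another network, found for instance in smooth muscle basement membranes. *COL4A5* had 486 CPM over all cells with PD173074, 389 CPM without PD173074 and 288 CPM in the 2D culture. *COL4A6* had 326 CPM with PD173074, 235 CPM without PD173074 and 172 CPM in the 2D culture. Both were the highest members of cardiomyocyte-like cells, where *COL4A5* had 521 CPM with PD173074, 412 CPM without PD173074 and 327 CPM in the 2D culture and *COL4A6* 405 CPM with PD173074, 261 CPM without PD173074 and 206 CPM in the 2D culture. After thinning, 58.7% of these cells with PD173074, 52.4% without PD173074 and 43.5% in the 2D culture had a *COL4A5* UMI. In endoderm-like cells the shares were 26.9% with PD173074 and 16.7% without PD173074. Endoderm-like cells had 132 CPM of *COL4A5* with PD173074 and 103 CPM without it, so no background level was read from them. The cluster set aside from naming, led by *CDH20* and *SHOX2*, reached 698 CPM of *COL4A5* with PD173074 and 710 CPM without PD173074. In cartilage-like cells *COL4A5* had 443 CPM with PD173074, 367 CPM without PD173074 and 128 CPM in the 2D culture. *COL4A6* had 210 CPM with PD173074, 139 CPM without PD173074 and 50.5 CPM in the 2D culture. Without PD173074 against the 2D culture both were higher in that class, at log2 ratios of 1.53 and 1.46, and with PD173074 at 1.80 and 2.06. The third pair was low: *COL4A4* reached at most 13.1 CPM and *COL4A3* 8.75 CPM in any class.

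Across 30 clusters of a sample with 50 cells or more, Pearson's r of log2 (CPM + 1) was 0.92 for *COL4A1* and *COL4A2* and 0.94 for *COL4A5* and *COL4A6*. The points share libraries and cell classes, so r is a description. The third head-to-head pair, *COL4A3* and *COL4A4*, had 0.82. Neighbours in other orientations also varied together: r was 0.83 for *COL6A1* and *COL6A2* (same strand) and 0.78 for *COL3A1* and *COL5A2* (tail to tail). Unlike neighbours existed too: *COL19A1* and *COL9A1*, tail to tail 5.08 kb apart on chromosome 6, had r of -0.21. *COL6A5*, under 1 CPM, and *COL6A6* had 0.27. The chains of a pair did not keep a fixed ratio. *COL4A2* over *COL4A1* ran between 0.668 and 2.40 with a median of 1.63, and was 1.43 in cardiomyocyte-like cells with PD173074, 1.62 without PD173074 and 2.02 in the 2D culture. *COL4A5* over *COL4A6* ran between 0.965 and 4.62. The sources used here do not say whether counting used strand, but the counted 3′ ends of each pair lie at opposite ends of its locus.

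**Figure D5:**
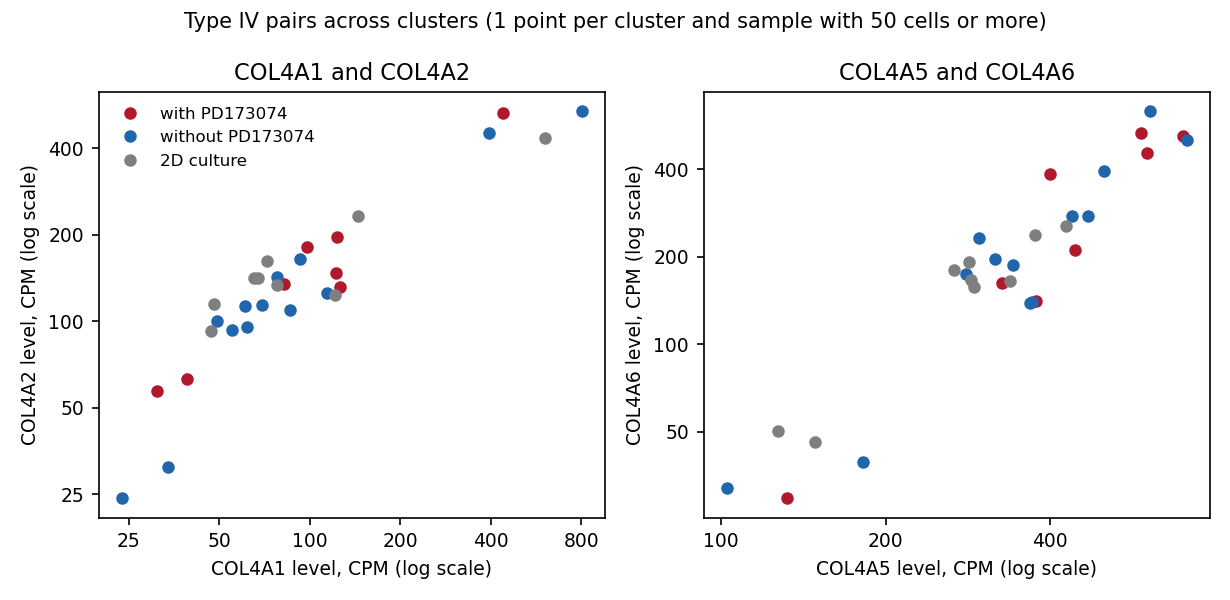
Level in CPM of *COL4A2* against *COL4A1* (left) and of *COL4A6* against *COL4A5* (right), both axes on a log scale; each of the 30 points is 1 cluster of 1 sample with 50 cells or more. The genes of each pair vary together, with r of 0.92 on the left and 0.94 on the right.

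*COL18A1*, a basement membrane member whose end fragment is known as endostatin, lay within 1.5-fold, with 137 CPM over all cells with PD173074, 164 CPM without PD173074 and 180 CPM in the 2D culture. In cardiomyocyte-like cells it had 194 CPM with PD173074, 183 CPM without PD173074 and 202 CPM in the 2D culture. Among cardioid classes of 50 cells or more, *COL15A1*, its relative, was highest in cartilage-like cells, with 8.28 CPM with PD173074 and 31.7 CPM without PD173074.

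Type VI collagen is built of the chains of *COL6A1*, *COL6A2* and *COL6A3*. Over all cells *COL6A1* had 155 CPM with PD173074, 106 CPM without PD173074 and 126 CPM in the 2D culture. *COL6A2* had 101 CPM with PD173074, 46.9 CPM without PD173074 and 56.5 CPM in the 2D culture. *COL6A3* had 59.6 CPM with PD173074, 21.6 CPM without PD173074 and 26.1 CPM in the 2D culture. All 3 were highest with PD173074. *COL6A3* had a log2 ratio of 1.47 (1.32 to 1.61) and *COL6A2* of 1.11 (1.01 to 1.21) with against without PD173074, and *COL6A3* of 1.19 with PD173074 against the 2D culture. Without the cells of other samples' clusters the ratios with against without PD173074 were 4.83 for *COL6A3* and 2.46 for *COL6A2*. These leave out every cartilage-like, stromal-like and epithelial-like cell without PD173074. *COL6A2* was no longer counted as higher when run 4 (1.09) or run 5 (1.10) without PD173074 was left out. In the cardioids the cartilage-like class was richest, with *COL6A3* at 322 CPM with PD173074, 292 CPM without PD173074 and 95.2 CPM in the 2D culture. *COL6A1* had 375 CPM with PD173074, 342 CPM without PD173074 and 259 CPM in the 2D culture. *COL6A2* had 364 CPM with PD173074, 324 CPM without PD173074 and 240 CPM in the 2D culture. With and without PD173074 were thus close inside that class, which was 13.0% of cells with PD173074 and 4.44% without PD173074. Cardiomyocyte-like cells had 133 CPM of *COL6A1* with PD173074, 87.0 CPM without PD173074 and 96.8 CPM in the 2D culture, and 52.2 CPM with PD173074, 23.5 CPM without PD173074 and 24.6 CPM in the 2D culture of *COL6A2*. They held 4.58 CPM with PD173074, 1.08 CPM without PD173074 and 0.615 CPM in the 2D culture of *COL6A3*, so that *COL6A1* over *COL6A3* was 29.1 with PD173074 and 157 in the 2D culture, against 1.16 with PD173074 and 2.72 in the 2D culture in cartilage-like cells.

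*COL8A1*, a short-chain network collagen of vessel and valve matrix, had 7.99 CPM over all cells with PD173074, 45.8 CPM without PD173074 and 123 CPM in the 2D culture. The log2 ratios were -2.52 (-2.71 to -2.33) with against without PD173074, -1.43 without PD173074 against the 2D culture and -3.95 with PD173074 against the 2D culture. The gene was highest in stromal-like cells, which had 851 CPM without PD173074 and 696 CPM in the 2D culture. Epithelial-like cells had 27.2 CPM with PD173074 and 30.1 CPM without it, and cardiomyocyte-like cells had 2.58 CPM with PD173074, 0.579 CPM without PD173074 and 0.672 CPM in the 2D culture. After thinning, 59.0% of stromal-like cells without PD173074 and 46.9% in the 2D culture had a UMI, against 0.406% of cardiomyocyte-like cells with PD173074, 0.0685% without PD173074 and 0.121% in the 2D culture. Its order over whole samples was the order of the stromal-like share of cells, 0.0870% with PD173074, 1.75% without PD173074 and 8.15% in the 2D culture. Leaving out the cells of other samples' clusters removed the 62 stromal-like cells without PD173074 and turned the ratio with against without PD173074 to 3.94, from levels of 7.89 CPM with PD173074 and 0.514 CPM without it, both under 10 CPM. Without PD173074 against the 2D culture the ratio was then -7.98. Among stromal-like cells themselves 0 of 29 members were higher or lower without PD173074 against the 2D culture, where 0 genes were higher and 0.0104% lower.

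Among the members that sit on fibrils, *COL14A1* had 116 CPM over all cells with PD173074, 92.3 CPM without PD173074 and 116 CPM in the 2D culture. In cardiomyocyte-like cells *COL14A1* had 132 CPM with PD173074, 69.5 CPM without PD173074 and 41.1 CPM in the 2D culture, a log2 ratio of 1.68 with PD173074 against the 2D culture. *COL21A1* had 49.0 CPM with PD173074, 42.3 CPM without PD173074 and 71.8 CPM in the 2D culture over all cells. In cardiomyocyte-like cells *COL21A1* had 54.5 CPM with PD173074, 21.7 CPM without PD173074 and 20.7 CPM in the 2D culture, with log2 ratios of 1.33 with against without PD173074 and 1.40 with PD173074 against the 2D culture. The ratio with against without PD173074 was 1.76 without the cells of other samples' clusters, and at 1.16 it was no longer counted as higher at resolution 0.3 or with the set-aside cluster counted in. Both were therefore highest with PD173074 inside that class. *COL19A1* had 27.2 CPM with PD173074, 30.8 CPM without PD173074 and 17.5 CPM in the 2D culture over all cells, and in cardiomyocyte-like cells 45.7 CPM with PD173074, 34.5 CPM without PD173074 and 18.4 CPM in the 2D culture. Its ratio there with PD173074 against the 2D culture was 1.31 on the log2 scale. *COL16A1* stayed at 31.8 CPM with PD173074, 31.7 CPM without PD173074 and 34.2 CPM in the 2D culture. *COL12A1* had 24.5 CPM with PD173074, 13.4 CPM without PD173074 and 26.6 CPM in the 2D culture, and its richest classes differed by sample: 132 CPM in epithelial-like cells with PD173074, and in stromal-like cells 178 CPM without PD173074 and 132 CPM in the 2D culture.

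Among the transmembrane members, *COL13A1* was lower with PD173074 than in the other samples, and *COL23A1* was not. *COL13A1* (chr10:69801867-69964275, plus strand), known from the neuromuscular junction and cell adhesion sites, had 14.9 CPM over all cells with PD173074, 54.1 CPM without PD173074 and 46.1 CPM in the 2D culture. Its log2 ratio with against without PD173074 was -1.86 (-2.01 to -1.72), and -2.19 without the cells of other samples' clusters. Cardiomyocyte-like cells carried most of it, with 18.8 CPM with PD173074, 63.8 CPM without PD173074 and 55.2 CPM in the 2D culture and a ratio of -1.76 (-1.93 to -1.59), the only lower member of that class. Without the cells of other samples' clusters this ratio was -2.01. After thinning, 3.51% of these cells with PD173074, 11.2% without PD173074 and 9.62% in the 2D culture had a UMI, and 0 of 52 endoderm-like cells with PD173074 and 0 of 72 without PD173074 did, counts that allow up to 5.77% with PD173074 and 4.17% without it. By cluster, *COL13A1* had 74.3 CPM without PD173074 in cluster 3 and 63.4 CPM without PD173074 in cluster 0, while clusters 2 and 6 had 23.4 CPM and 10.8 CPM with PD173074 and 30.4 CPM and 13.7 CPM without PD173074. In cluster 12, dividing cells led by *UBE2C* and present in all 3 samples, it had 13.2 CPM with PD173074 and 52.7 CPM without PD173074, a log2 ratio of -1.99 (-2.86 to -1.18), with 1.31% of all genes higher or lower there. *COL23A1* had 83.5 CPM over all cells with PD173074, 68.6 CPM without PD173074 and 52.7 CPM in the 2D culture. In cardiomyocyte-like cells *COL23A1* had 137 CPM with PD173074, 80.8 CPM without PD173074 and 63.2 CPM in the 2D culture, a log2 ratio of 1.11 with PD173074 against the 2D culture. *COL25A1*, known from motor nerve entry into muscle, had 23.9 CPM with PD173074, 44.9 CPM without PD173074 and 40.3 CPM in the 2D culture over all cells. In cardiomyocyte-like cells *COL25A1* had 29.4 CPM with PD173074, 51.8 CPM without PD173074 and 46.9 CPM in the 2D culture. Its interval with against without PD173074 reached inside 2-fold in both. *COL17A1*, the member of hemidesmosomes, reached 19.2 CPM with PD173074 and 22.5 CPM without PD173074 in endoderm-like cells.

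Epithelial-like cells, led by *SFRP2*, *GABRP* and *VTCN1*, had 4203 CPM of collagen with PD173074 and 4439 CPM without PD173074, and 0 of 25 members were higher or lower, beside 0.0204% and 0.051% of all genes. Their leading members were *COL3A1*, *COL5A2* with 464 CPM with PD173074 and 407 CPM without PD173074, and *COL1A1* with 441 CPM with PD173074 and 595 CPM without it. Endoderm-like cells had the least, 900 CPM with PD173074 and 967 CPM without PD173074. There 3 of 22 members were higher and 5 lower, beside 2.69% and 5.02% of all genes, from 55 cells with PD173074 and 74 without it. *COL1A1* had 18.5 CPM with PD173074 and 88.3 CPM without PD173074 in them. *COL9A3* had 4.98 CPM with PD173074 and 62.6 CPM without it. Running the other way, *COL25A1* had 73.3 CPM with PD173074 and 19.1 CPM without it. *COL21A1* had 57.7 CPM with PD173074 and 14.5 CPM without it, and *COL14A1* 43.1 CPM with PD173074 and 6.83 CPM without it. The remaining members were low throughout. *COL6A5*, *COL10A1* and *COL20A1* stayed at or under 0.901 CPM over all cells, and *COL8A2*, *COL7A1*, *COL6A6*, *COL28A1*, *COL26A1*, *COL22A1* and *COL5A3* peaked at 5.40 to 19.0 CPM in any class.

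Genes that make, cut, bind and degrade collagen were described from 6 lists of 22, 13, 8, 13, 12 and 10 genes. Among all genes compared over all cells, 3.2% were higher and 1.84% lower with against without PD173074, and 1.45% were higher and 0.398% lower without PD173074 against the 2D culture. The list for chain modification, folding and export showed 0 higher and 0 lower of 19 measured with against without PD173074 over all cells, with a median log2 ratio of -0.15. Among genes for propeptide cleavage and crosslinking, 1 of 8 was higher and 1 lower: *TLL1*, a procollagen protease, had 31.2 CPM with PD173074 and 6.40 CPM without PD173074, and *LOX*, which crosslinks fibrils, 7.03 CPM with PD173074 and 31.5 CPM without it. *LOX* had 90.5 CPM in the 2D culture, so its order was that of *COL8A1*. In cardiomyocyte-like cells *TLL1* had 47.3 CPM with PD173074, 5.17 CPM without PD173074 and 1.30 CPM in the 2D culture, a log2 ratio of 3.19 with against without PD173074. Of 8 receptors measured over all cells, 0 were higher and 2 lower, the integrin subunits *ITGA2* with 9.34 CPM with PD173074 and 25.3 CPM without PD173074, and *ITGA11* with 1.17 CPM with PD173074 and 12.8 CPM without it. *ITGA11* and *LOX* are leading genes of the stromal-like cluster, which had 4 cells with PD173074, 62 without PD173074 and 667 in the 2D culture. The part of that cluster in their ratios was not tested. In cardiomyocyte-like cells *ITGA2* had 4.73 CPM with PD173074, 25.5 CPM without PD173074 and 29.4 CPM in the 2D culture. Of 12 collagen-binding matrix genes, 3 were higher with against without PD173074 and 0 lower, with a list median of 0.83. *TNC* had 33.0 CPM with PD173074 and 9.60 CPM without it, *THBS1* 154 CPM with PD173074 and 60.0 CPM without it, and *DCN* 112 CPM with PD173074 and 46.3 CPM without it. Without PD173074 against the 2D culture, 5 of 10 genes of that list were lower and 0 higher, among them *FN1* with 607 CPM without PD173074 and 1429 CPM in the 2D culture. Of 7 breakdown genes and 8 regulators, 0 were higher or lower with against without PD173074 over all cells. In cardiomyocyte-like cells, where 2.39% of all genes were higher and 1.97% lower, 1 regulator, *CCN2*, was higher, with 34.5 CPM with PD173074 and 6.50 CPM without PD173074.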

How the data were processed

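RNA of single H9 cells was measured in 11 libraries. The authors deposited raw UMI counts per gene and barcode for each library, for which the submitters' processing notes name Cell Ranger 7.0.0 and hg38. No annotation release was stated. Groups came from the treatment label. Since runs of a group share their droplets, each group was 1 sample, and CPM were computed from the deposited counts as means over runs. The labels name no separate cultures, so the samples were compared without tests.

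Cells had at least 1000 UMIs, 500 genes and at most 30% mitochondrial UMIs. Counts were scaled to 10000 per cell, and 2000 variable genes without mitochondrial, ribosomal protein and collagen genes gave 30 principal components, 15 neighbours and leidenalg 0.10.2 clusters at resolution 0.6, seed 0 (scanpy 1.11.5). Scrublet at an expected rate of 0.06 marked at most 1 cell per sample, was taken as not having worked, and no cell was removed as a doublet. Clusters were named from 3 or more markers of a class among their 100 leading genes, and as cardiomyocyte-like from at least 0.5 times the mean level of the cardiomyocyte markers; a cluster whose 10 leading genes held more markers of a different class was set aside.

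Genes were called higher or lower at 10 CPM or more in the higher sample with an exact conditional binomial 95% interval (scipy 1.17.1) beyond 2-fold. Shares of cells were taken in run 1 of each sample after thinning to 2000 UMIs, and a count of 0 was read as allowing 3 cells. Intervals and limits cover counting error only. Members with 10 CPM in a sample, or 50 CPM in a class of 50 cells or more, were named with every sample's level; list genes named were up to 4 per list with the largest ratios. The members, lists and rules were chosen with earlier results of these data known. Positions are from GENCODE 29 (GRCh38) and promoters from RefSeq. On counts simulated at the depth of all cells of the samples, each comparison called 50 of 50 genes with a 3-fold difference and 0 of 50 with a 1.5-fold difference. The simulated counts held counting noise only, so they cannot show how far separate cultures or their cell make-up would differ. Cell classes and clusters, which have fewer counts, were not simulated. Alternatives were median-of-ratios and TMM scaling (edgeR 4.0.16), CPM without mitochondrial and ribosomal genes, means over cells, other floors, fold thresholds, resolutions and clusterings, 15% mitochondrial UMIs, thinning to 1000 UMIs, other samples' clusters left out and each run left out.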

Additional observations from a re-analysis of the deposited data

Results flagged for a closer look

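Several collagen genes were higher in one cell class and lower in another under the same contrast, each beyond 2-fold. These differences between classes were not tested, since each group is 1 sample. With against without PD173074, *COL2A1* had a log2 ratio of 1.57 in cardiomyocyte-like cells and -3.03 in cartilage-like cells, 4.6 apart. With PD173074 against the 2D culture, *COL2A1* had 1.17 and -4.35 in the same classes, 5.52 apart, and *COL1A2* had 1.91 and -1.12, 3.03 apart. With against without PD173074, *COL1A1* had 1.55 in cardiomyocyte-like cells and -2.25 in endoderm-like cells, 3.8 apart, and *COL1A2* had 1.44 and -2.99, 4.43 apart. The endoderm-like values rest on 55 cells with PD173074 and 74 without it, and the median log2 ratio of all genes was -0.53 in these cells and -0.07 in cardiomyocyte-like cells.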

How the results depend on the processing

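No paired analysis was possible because the runs of a group are repeat runs of 1 sample and no result comes from a test. Over all cells, the largest shifts of the summed ratios came from leaving out the cells of other samples' clusters in both comparisons that involve the sample without PD173074, and from the mean over cells with PD173074 against the 2D culture. Leaving out those cells, summed log2 ratios over all cells were 1.32 with against without PD173074, -1.76 without it against the 2D culture and -0.44 with it against the 2D culture. In cardiomyocyte-like cells they were 0.69, 0.0415 and 0.74. Members higher over all cells became 16 with against without PD173074, and members higher and lower became 1 and 12 without it against the 2D culture. In cardiomyocyte-like cells without PD173074 against the 2D culture these counts also moved, and the members' median log2 ratio was -0.21, beside 0.0817 for all genes. *COL8A1* with against without PD173074 reversed to 3.94. Over all cells these values compare unlike cell classes, since every cartilage-like, stromal-like and epithelial-like cell without PD173074 was left out. In cardiomyocyte-like cells, those that involve the sample without PD173074 compare unlike clusters.

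For the summed level over all cells with against without PD173074, median-of-ratios scaling gave 0.29, TMM 0.25, CPM without mitochondrial and ribosomal genes 0.25 and the mean over cells 0.45. Without PD173074 against the 2D culture these gave -0.80, -0.82, -0.76 and -0.49, and with PD173074 against the 2D culture -0.51, -0.57, -0.51 and -0.0334. In cardiomyocyte-like cells they gave 0.68, 0.67, 0.65 and 0.55 with against without PD173074, and 0.0466, 0.0303, 0.0512 and 0.14 without it against the 2D culture. With it against the 2D culture the mean over cells gave 0.69. Median-of-ratios scaling shifted all genes by -0.11 with against without PD173074, and TMM by 0.11 without it against the 2D culture, over all cells.

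With collagen genes kept in the clustering, summed ratios in cardiomyocyte-like cells were 0.56 with against without PD173074, 0.0639 without it against the 2D culture and 0.62 with it against the 2D culture. In that last comparison 1 member was lower at resolutions 0.3 and 1.0, with the set-aside cluster counted in, with median-of-ratios scaling and at a 20 CPM floor; *COL5A1* lost its count. Of the 9 members higher there, 5 remained at each resolution and with the set-aside cluster. At 1.5-fold over all cells, 5 members were higher and 4 lower with against without PD173074 (6.32% and 4.62% of all genes), 1 and 7 without it against the 2D culture (3.38% and 1.30%), and 6 higher with it against the 2D culture (9.70%). At 1.5-fold in cardiomyocyte-like cells, 2 were lower with against without PD173074 (4.90%), and 2 were higher and 1 lower without it against the 2D culture (2.47% and 0.72%). With no floor, 4 members were higher with and 1 without PD173074 against the 2D culture over all cells (6.12% and 2.27% of all genes), and 14 with and 1 without PD173074 in cardiomyocyte-like cells (3.68% and 0.896%).

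With each run left out, members lower in cardiomyocyte-like cells with PD173074 against the 2D culture numbered 1 to 2 and members higher 7 to 9, and the other counts moved by at most 1. Of 682 alternative values for 34 gene ratios, 637 kept direction and count, 44 lost the count and 1 reversed. Depth limits members under 10 CPM and classes under 100 cells, and 1 sample per group limits every ratio. The cause of these shifts was not tested.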

Other observations

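Endothelial-like cells, led by *CLDN5* and *PECAM1*, numbered 16 with PD173074, 8 without PD173074 and 0 in the 2D culture, too few to compare. They had the highest *COL4A1* of any class, 1706 CPM with PD173074 and 2717 CPM without it, and 980 CPM of *COL4A2* with PD173074, against 1568 CPM without PD173074. Type IV took 59.0% of their collagen UMIs with PD173074 and 83.6% without it. *COL15A1* had 126 CPM with PD173074 and 103 CPM without it in these cells, above its level in the classes of 50 cells or more.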
